A study of Mus musculus with 40 samples.

Results

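Glycolysis splits glucose into pyruvate, and the pentose phosphate pathway draws on the same glucose 6-phosphate. The 34 genes described here encode the enzymes and transporters of these routes, with the enzymes that set their rate. They were chosen by symbol from a list of pathway names, with no rule on measured values, though earlier results of these data were known. Pyruvate kinase, written Pkm here, has the symbol Pkm2 in the files. All 34 were found, among 23284 genes in the table of the pI-pC and antibody libraries and among 23107 genes in each of the tamoxifen tables. All 34 passed the filter on low counts in each comparison below.

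Glucose enters through the carriers Slc2a1 and Slc2a3, is trapped as glucose 6-phosphate by hexokinases (Hk1, Hk2) and is committed to glycolysis by phosphofructokinase (Pfkl, Pfkm, Pfkp). Lactate dehydrogenase (Ldha, Ldhb) interconverts pyruvate and lactate, and Slc16a1 and Slc16a3 carry lactate across the membrane. The pentose phosphate branch makes NADPH through G6pdx and Pgd and ribose 5-phosphate for nucleotides, and transketolase (Tkt) and transaldolase (Taldo1) return its sugars to glycolysis. In developing T cells, Notch signals are known to support glucose use, and Myc is known to bind many glycolytic genes.

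RNA was sequenced from 40 libraries of sorted thymocytes of C57BL/6 mice, in 12 groups. The cells came from 2 stages of thymocyte development, the earliest precursors of T cells (ETP) and the DN3 stage, the later one, at which T-cell receptor beta genes are rearranged. Zmiz1 encodes a PIAS-like coactivator known to work with Notch1, and the design set its loss beside a block of Notch1 itself. The labels gave no ages.

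In the long-term deletion, MxCre Zmiz1f/f mice (DeltaMxCre) and control MxCre mice, 3 per group, received 40 micrograms of pI-pC 5 times, 1 dose every 2 days, and were sorted after 8 weeks. In the short-term deletion, Rosa26CreERT2 Zmiz1f/f mice (DeltaTamCre) and control Rosa26CreERT2 mice (TamCre), 4 per group, received 0.2 mg/g of tamoxifen and were sorted 43 to 44 hours later. In the third arm, mice received 10 mg/kg of the anti-NRR antibody, which locks Notch1 in its inactive shape (AntiNRR), or isotype IgG and were sorted after 24 hours, with 3 libraries per group. The labels gave no number of mice and no further genotype for that arm. Both Cre controls carried the Cre and received the same agent. MxCre is driven by an interferon-responsive promoter and Rosa26CreERT2 by a broadly active locus, so neither deletes in thymocytes alone.

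The libraries of the pI-pC and antibody arms held 9456818 to 23962395 counts, those of tamoxifen DN3 48127197 to 91659598 and those of tamoxifen ETP 17418638 to 30975324. The 3 sets were made with different kits and were never compared with each other. The sort described in the labels gives CD44+CD25- cells for both stages, which is not the usual phenotype of DN3 cells, so the stage was checked on the counts. Cd44 ran from 0.536 to 6.94 CPM (counts scaled to library size, with TMM factors) in the DN3 libraries and from 47.9 to 312 CPM in the ETP libraries. Cd34 also parted the stages, at 0 to 2.35 CPM in DN3 and 18 to 359 CPM in ETP libraries. Il2ra, which encodes CD25, did not. It ran from 4571 to 5023 CPM in DeltaMxCre ETP and from 4278 to 5733 CPM in DeltaMxCre DN3. In IgG ETP it ran from 1852 to 2569 CPM, below the 3076 to 3668 CPM of IgG DN3 but above the 528 to 824 CPM of AntiNRR DN3. Kit was higher in ETP without overlap within each treatment of the pI-pC and antibody libraries. It stood at 186 to 398 CPM against 91.2 to 109 CPM under IgG and 247 to 452 CPM against 153 to 209 CPM under the antibody. Across treatments, IgG ETP overlapped AntiNRR DN3. Of 10 erythroid genes, a cell type rich in glycolytic enzymes, 2 to 6 were at 0 in every library of a group, Slc4a1 in all 12 groups, and their summed level ran from 4.97 to 26.4 CPM. Zmiz1 fell in DN3 after pI-pC, from 286 to 349 CPM in controls to 113 to 129 CPM (log2 fold change -1.41, adjusted p = 0.000144, edgeR). It also fell in DN3 after tamoxifen, from 301 to 354 CPM to 184 to 243 CPM (log2 fold change -0.66, adjusted p = 0.0368, edgeR). In ETP the Zmiz1 groups did not overlap either, at 58.7 to 114 CPM against 157 to 319 CPM after pI-pC and 120 to 307 CPM against 418 to 461 CPM after tamoxifen, but edgeR gave adjusted p = 0.256 and 0.907 (DESeq2 0.00269 and 0.00761). Dtx1, a direct Notch target, stood at 4.82 to 15.3 CPM in AntiNRR DN3 against 156 to 185 CPM in IgG DN3.

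The promoters of the 5 members that edgeR called in a treated comparison are shown first, since their sequences differ in the letters that Myc and hypoxia-inducible factor are known to read. Each line is the 250 bases before a RefSeq transcript start on GRCm38.p6, written 5′ to 3′ on the gene's strand. Capitals mark CACGTG, the E-box read by Myc with Max, and ACGTG, the core of the hypoxia response element, or its reverse complement CACGT, which CACGTG also holds.
Hk2, chr6:82774455-82774704, minus strand: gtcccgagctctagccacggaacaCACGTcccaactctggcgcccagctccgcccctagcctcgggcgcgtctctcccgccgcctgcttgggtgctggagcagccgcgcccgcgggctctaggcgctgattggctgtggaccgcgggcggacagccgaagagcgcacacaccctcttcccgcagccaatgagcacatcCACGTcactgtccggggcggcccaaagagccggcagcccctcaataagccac
Ldha, first window, chr7:46845554-46845803, plus strand: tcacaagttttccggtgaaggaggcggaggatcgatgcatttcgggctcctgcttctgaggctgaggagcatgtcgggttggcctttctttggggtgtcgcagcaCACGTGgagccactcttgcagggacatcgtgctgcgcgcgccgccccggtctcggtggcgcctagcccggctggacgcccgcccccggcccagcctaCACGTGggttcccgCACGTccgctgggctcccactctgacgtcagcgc
Ldha, second window, chr7:46846832-46847081, plus strand: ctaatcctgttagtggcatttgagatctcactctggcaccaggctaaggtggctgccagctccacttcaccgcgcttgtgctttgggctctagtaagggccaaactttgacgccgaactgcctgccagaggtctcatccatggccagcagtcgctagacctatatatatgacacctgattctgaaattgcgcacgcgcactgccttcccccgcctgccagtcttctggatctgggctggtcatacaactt
Slc16a1, chr3:104638414-104638663, plus strand: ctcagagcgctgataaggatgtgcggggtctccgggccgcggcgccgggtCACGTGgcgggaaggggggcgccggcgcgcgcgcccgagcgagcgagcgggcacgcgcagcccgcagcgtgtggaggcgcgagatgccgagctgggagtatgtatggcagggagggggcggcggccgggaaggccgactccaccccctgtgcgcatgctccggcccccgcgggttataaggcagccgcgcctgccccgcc
Tkt, chr14:30548881-30549130, plus strand: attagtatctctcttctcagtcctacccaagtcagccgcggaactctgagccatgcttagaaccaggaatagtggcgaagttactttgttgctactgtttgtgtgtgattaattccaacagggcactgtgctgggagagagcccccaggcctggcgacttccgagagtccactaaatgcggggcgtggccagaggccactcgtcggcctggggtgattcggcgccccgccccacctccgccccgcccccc
Pgam2, chr11:5803797-5804046, minus strand: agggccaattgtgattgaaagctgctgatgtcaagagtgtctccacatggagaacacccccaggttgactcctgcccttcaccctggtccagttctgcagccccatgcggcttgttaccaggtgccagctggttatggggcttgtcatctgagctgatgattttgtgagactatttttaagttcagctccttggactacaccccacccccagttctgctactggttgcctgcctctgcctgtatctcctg

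The first Ldha window held 2 E-boxes, beginning 145 and 48 bases before the start, and a CACGT at 34 bases. Slc16a1 held 1 E-box at 200 bases, and Hk2 held CACGT at 226 and 52 bases with no E-box. The second Ldha window and the windows of Tkt and Pgam2 held none of these letters on either strand. RefSeq gave 47 windows for 33 of the 34 members, 10 of which had 2 or more. CACGTG stood in 4 of the 47 member windows (8.51%) and in 6.02% of all 32851 windows of this length. ACGTG on either strand stood in 15 of the 47 (31.9%) and in 16.6% of all windows. The member windows were also richer in G and C, with a median of 59.6% against 52.4%. The letters TGGGAA, read by the Notch partner Rbpj and searched after the values were seen, stood in 21.3% of member windows and 21.6% of all windows on either strand. A match is a description of letters, not a binding site. On mm10 the genes span chr6:82725025-82774454 (Hk2), chr7:46841475-46855627 (Ldha), chr3:104638668-104658462 (Slc16a1), chr14:30548359-30574720 (Tkt) and chr11:5801640-5803733 (Pgam2), by the GENCODE annotation.

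Per kilobase of exon, the members spanned a wide range of levels. In IgG DN3 the highest were Pkm, pyruvate kinase, at 149.9 ± 17.4 CPM per kb, and Gapdh, glyceraldehyde-phosphate dehydrogenase, at 136.8 ± 13.7 CPM per kb (SD, n = 3). Gpi1, which isomerises glucose 6-phosphate, followed at 123.6 ± 6.4 CPM per kb and Ldha at 117.2 ± 5.4 CPM per kb. Pkm and Gapdh, and Gapdh and Gpi1, lay within 1 SD of each other, and Gpi1 and Ldha lay just over 1 SD apart. The lowest was Slc16a3, the second lactate carrier, at 0.49 ± 0.05 CPM per kb, below the regulatory enzyme Pfkfb4 at 1.83 ± 0.09 CPM per kb. The carriers Slc2a1 at 6.25 ± 0.64 CPM per kb and Slc2a3 at 4.62 ± 0.54 CPM per kb stood in the lower part of the order. The members were abundant beside the rest: their median was 65.3 CPM in the antibody DN3 libraries, against 24.4 CPM for all 12658 genes tested there, and 26 of 34 lay above the latter.

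By edgeR, the Notch1 antibody in DN3 gave more called members than any other treated comparison. Hk2, the inducible hexokinase, Slc16a1, Tkt and Ldha fell, and no member rose. These 4 of 34 (11.8%) compare with 5.61% of all genes called in either direction and 2.96% called lower (edgeR's quasi-likelihood test, adjusted p under 0.05 by Benjamini-Hochberg over all genes). DESeq2 called the same 4, and 7.38% of all genes.

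Hk2 stood at 35.0, 39.8 and 30.6 CPM in the 3 IgG DN3 libraries and at 12.6, 14.1 and 9.48 CPM in the 3 AntiNRR DN3 libraries. The groups were far apart, with no treated library near a control. The fall was 2.93-fold (log2 fold change -1.55, SE 0.26, adjusted p = 0.000396, edgeR). In the same libraries Hk1, the constitutive hexokinase, stood at 125, 171 and 145 CPM under IgG and 170, 178 and 199 CPM under the antibody, overlapping at 1 library (log2 fold change 0.30, adjusted p = 0.19, edgeR). As a share of both hexokinases per kilobase, Hk2 went from 17.2 ± 2.12% to 5.47 ± 1.33% (SD, n = 3 each), and the ranges did not overlap.

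Slc16a1, a carrier of lactate and pyruvate, stood at 236, 206 and 159 CPM under IgG and at 139, 149 and 146 CPM under the antibody. Its groups did not overlap, and the IgG libraries were the more spread of the 2 groups. The log2 fold change was -0.48 (SE 0.13, adjusted p = 0.0227, edgeR). Ldha, which makes the lactate that Slc16a1 carries, stood at 234, 216 and 217 CPM under IgG and at 168, 177 and 182 CPM under the antibody, a log2 fold change of -0.35 (SE 0.10, adjusted p = 0.0443, edgeR). Both Ldha groups were tight, so a change this small could be called. Ldhb, the other lactate dehydrogenase subunit, stood at 103 to 131 CPM under IgG and 98.4 to 114 CPM under the antibody (log2 fold change -0.13, adjusted p = 0.712, edgeR).

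Tkt stood at 257, 243 and 270 CPM under IgG and at 163, 176 and 233 CPM under the antibody. The third treated library came close to the controls without reaching them. The log2 fold change was -0.44 (SE 0.12, adjusted p = 0.0294, edgeR). G6pdx, the entry enzyme of the same branch, did not pass the test (log2 fold change -0.48, adjusted p = 0.22, edgeR), although its groups, 38.6 to 49.6 CPM and 25 to 36.1 CPM, did not overlap. Taldo1, which shares the sugar exchange with Tkt, had a log2 fold change of 0.00 with adjusted p = 0.991 by edgeR, at 119 to 137 CPM under IgG and 121 to 131 CPM under the antibody.

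Over all 34 members in the antibody DN3 comparison, 23 had a log2 fold change below 0 (67.6%, against 51.3% of all genes), and the median was -0.22 against -0.01 for all genes. At an unadjusted p under 0.05 stood 10 lower and 2 higher members, 35.3% against 16.9% of all genes. Without overlap and lower stood 7 of 34, where 11% of all genes did so. They were G6pdx, Hk2, Ldha, Pfkl, Pgam1, Slc16a1 and Tkt. Bpgm, the mutase that makes 2,3-bisphosphoglycerate, H6pd, the G6pdx counterpart of the endoplasmic reticulum, and Pfkfb4 did not overlap and were higher, with log2 fold changes of 0.41, 0.16 and 0.71 and adjusted p of 0.398, 0.544 and 0.393 by edgeR. The share of all genes without overlap and higher was not counted, so these members are given by name only. The furthest above 0 was Aldoc, a minor aldolase, at 1.10 (adjusted p = 0.113, edgeR), named after its values were seen.

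**Figure D1:**
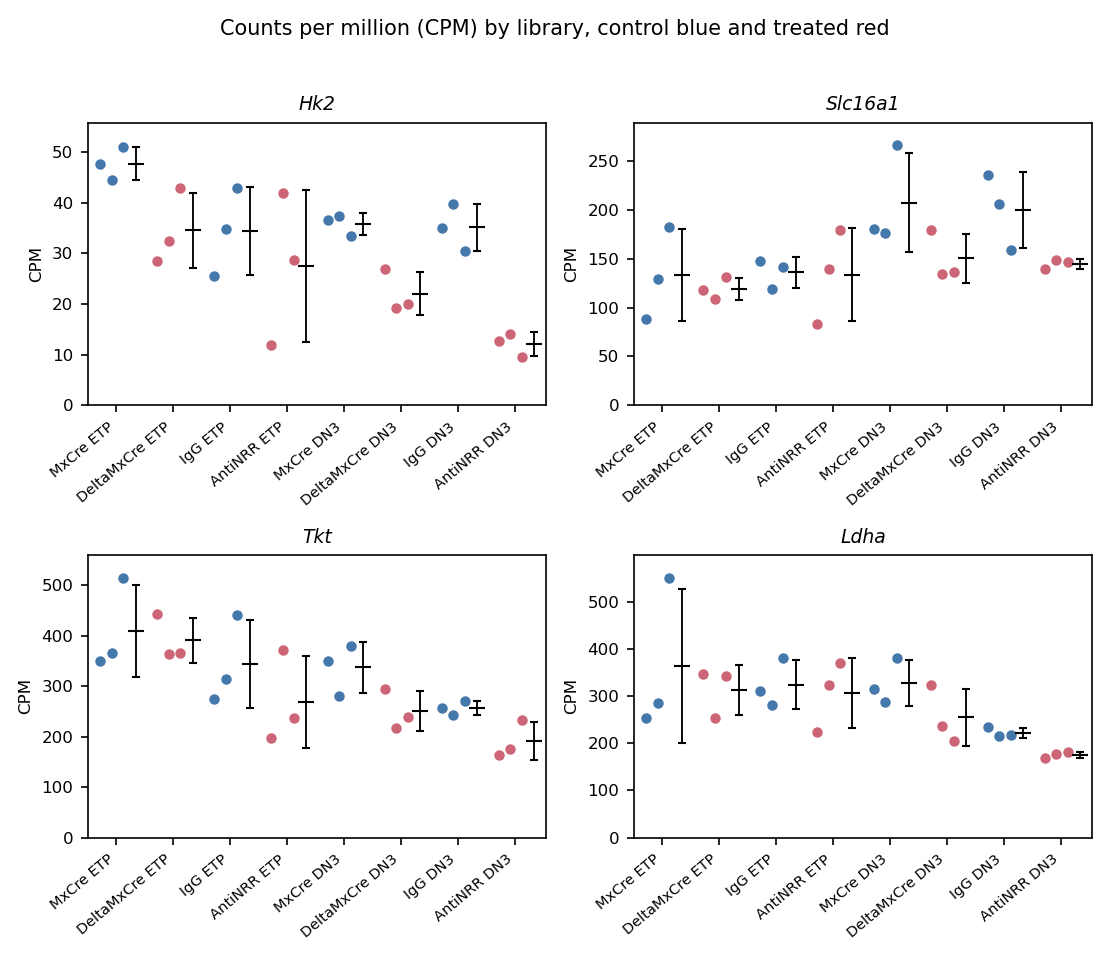
CPM (y axis, from 0) of Hk2, Slc16a1, Tkt and Ldha in each library of the 8 pI-pC and antibody groups, with control groups in blue, treated groups in red, and the mean with its SD as a black bar beside the points. All 3 AntiNRR DN3 libraries lie below all 3 IgG DN3 libraries for each of the 4 genes, and Hk2 shows the widest gap.

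Hk2 was called with each of the 6 antibody DN3 libraries left out in turn, with adjusted p from 0.00118 to 0.00902 by edgeR. The other 3 were not secure: 1 to 3 members were called in these fits, 1 without IgG replicate 1, IgG replicate 2 or AntiNRR replicate 1, 2 without IgG replicate 3 or AntiNRR replicate 2, and 3 without AntiNRR replicate 3. Without IgG replicate 3 the second was Slc16a1, and without AntiNRR replicate 2 it was Aldoc, which rose in that fit. Without AntiNRR replicate 3 they were Hk2, Slc16a1 and Tkt, and Ldha was called in none of the 6 fits. Only Hk2 was called when the spread was estimated over all 8 groups of the table. In bulk RNA, fewer cells of a type and less RNA per cell cannot be told apart. The 10 DN3 marker genes, none at 0, summed to 8697 to 9660 CPM under the antibody and 14069 to 14186 CPM under IgG. They include Dtx1, the Notch target given above, and Il2ra, at 528 to 824 CPM under the antibody and 3076 to 3668 CPM under IgG. Their sum is thus not a measure of DN3 cells apart from the Notch1 block. The 9 dendritic-cell genes summed to 555 to 678 CPM under the antibody and 183 to 229 CPM under IgG, with Clec9a, Cd209a and Batf3 at 0 in both groups. A further 4 lists were also higher under the antibody without overlap, though the lists are not all separate sets of genes. The dendritic list shares Ccr9 with the double-positive list and Flt3 with the early precursor list. The 9 genes of the following double-positive stage, none at 0, summed to 4153 to 4438 CPM against 3253 to 3692 CPM, and 9 early precursor genes to 197 to 237 CPM against 137 to 157 CPM. Most of the early precursor sum was Kit, at 153 to 209 CPM against 91.2 to 109 CPM. Cd34 was at 0 in every AntiNRR DN3 library. The 11 killer and innate genes summed to 229 to 256 CPM against 121 to 152 CPM, with Klrb1c, Ncr1, Gzmb and Klrd1 at 0 in both groups. The 10 stromal genes summed to 305 to 315 CPM against 241 to 249 CPM, with Krt5, Krt8, Foxn1 and Col1a2 at 0 in both. The ribosomal precursor Rn45s took 4.77 to 6.80% of counts against 2.75 to 3.74%. The part of any of these in the fall of the members was not tested.

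Zmiz1 deletion by pI-pC gave lower values for many of the same members in DN3, and none passed edgeR's threshold, where 1.44% of all genes did. DESeq2 called Hk2 and Tpi1 lower, 2 of 34, where it called 4.16% of all genes. At an unadjusted p under 0.05 by edgeR stood 9 members, all lower (26.5%, against 16.1% of all genes). Below 0 were 28 of 34 (82.4%, against 51.6%), and the median log2 fold change was -0.16 against -0.01 for all genes.

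Tpi1, triose-phosphate isomerase, stood at 75.2, 74.5 and 100 CPM in MxCre DN3 and at 52.2, 53.2 and 53.7 CPM in DeltaMxCre DN3. The deleted libraries were nearly equal, and all lay below the controls. The log2 fold change was -0.65 (SE 0.16, adjusted p = 0.0561 by edgeR and 0.0115 by DESeq2). Hk2 stood at 36.6, 37.4 and 33.4 CPM in controls and at 26.9, 19.3 and 20.1 CPM after deletion, again without overlap (log2 fold change -0.70, SE 0.21, adjusted p = 0.116 by edgeR and 0.0463 by DESeq2). Pfkl, the liver-type phosphofructokinase, stood at 103, 114 and 107 CPM against 82.2, 82.2 and 70.9 CPM (log2 fold change -0.46, adjusted p = 0.112 by edgeR). Its groups did not overlap either.

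After pI-pC 7 of 34 members did not overlap and were lower, where 10.5% of all genes did so. They were Hk2, Tpi1, Pgls, Pfkl, Aldoa, Pkm and Gpi1. Hk1 did not overlap and was higher, a direction in which all genes were not counted. MxCre DN3 replicate 3 stood apart from its group, with a summed level of the 34 members of 4618 CPM against 3755 and 3823 CPM, and of 20 proliferation genes of 8333 CPM against 4664 and 4079 CPM. Without it the members' median was -0.10, and 1 member was called by edgeR, Ldhb, which was 40.9 CPM in that library and 84.3 and 115 CPM in the other controls. The members ranged from -0.70 for Hk2 to 0.33 for Eno3 on the log2 scale.

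Other quantities also differed without overlap between the DeltaMxCre and MxCre DN3 libraries. Malat1 took 0.961 to 1.33% of counts after deletion and 0.324 to 0.711% in controls, and Rn45s 4.71 to 5.07% and 6.76 to 8.82%. The 9 double-positive genes, none at 0, summed to 2546 to 3165 CPM after deletion and 2127 to 2451 CPM in controls. The 8 B-cell genes summed to 44.5 to 60.2 CPM and 27.4 to 41.2 CPM, with Pax5 at 0 in both groups. Their part in the lower values of the members was not tested.

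At 43 to 44 hours after tamoxifen, edgeR called 1 member in DN3, Pgam2, which fell. That is 1 of 34, where 0.0827% of all genes were called in either direction and 0.0301% lower. DESeq2 called 6 members, all lower, Pfkl, Tpi1, Pgam1, Pgam2, Ldha and G6pdx, where it called 3.44% of all genes. At an unadjusted p under 0.05 by edgeR stood 12 members, all lower (35.3%, against 15.6%), 29 of 34 were below 0 (85.3%, against 47.8%), and the median was -0.21 against 0.01 for all genes.

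Pgam2, the muscle-type phosphoglycerate mutase, stood at 44.1, 42.6, 40.7 and 41.3 CPM in the 4 TamCre DN3 libraries and at 18, 21.2, 28.5 and 24 CPM in the 4 DeltaTamCre DN3 libraries. The control libraries were nearly equal, and every deleted library lay below them. The log2 fold change was -0.88 (SE 0.12, adjusted p = 0.0368 by edgeR and 1.55e-07 by DESeq2). Its share of both phosphoglycerate mutases per kilobase went from 23.5 ± 2.14% to 17.5 ± 3.83% (SD, n = 4 each), with overlap. Pgam1, the form of most tissues, stood at 335, 248, 293 and 294 CPM in controls and at 233, 262, 213 and 213 CPM after deletion. One deleted library exceeded the lowest control (log2 fold change -0.34, adjusted p = 0.17 by edgeR).

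Pfkl stood at 182, 144, 155 and 168 CPM in TamCre DN3 and at 114, 141, 131 and 133 CPM in DeltaTamCre DN3, which did not overlap by a small margin (log2 fold change -0.32, adjusted p = 0.158 by edgeR). Tpi1 stood at 421, 303, 355 and 366 CPM against 252, 325, 259 and 273 CPM (log2 fold change -0.38, adjusted p = 0.168 by edgeR). Ldha stood at 1109, 785, 932 and 951 CPM against 650, 828, 685 and 722 CPM (log2 fold change -0.39, adjusted p = 0.167 by edgeR). For both, DeltaTamCre replicate 2 lay above TamCre replicate 2. G6pdx stood at 85.9, 69.5, 77 and 78.2 CPM against 58.9, 69.5, 60 and 61.3 CPM, the second library of each group being equal to 3 digits (log2 fold change -0.31, adjusted p = 0.139 by edgeR). Hk2 stood at 42.8, 24.7, 24.1 and 32.2 CPM against 18.9, 26.8, 21.1 and 23.1 CPM, with overlap (log2 fold change -0.46, adjusted p = 0.268 by edgeR).

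**Figure D2:**
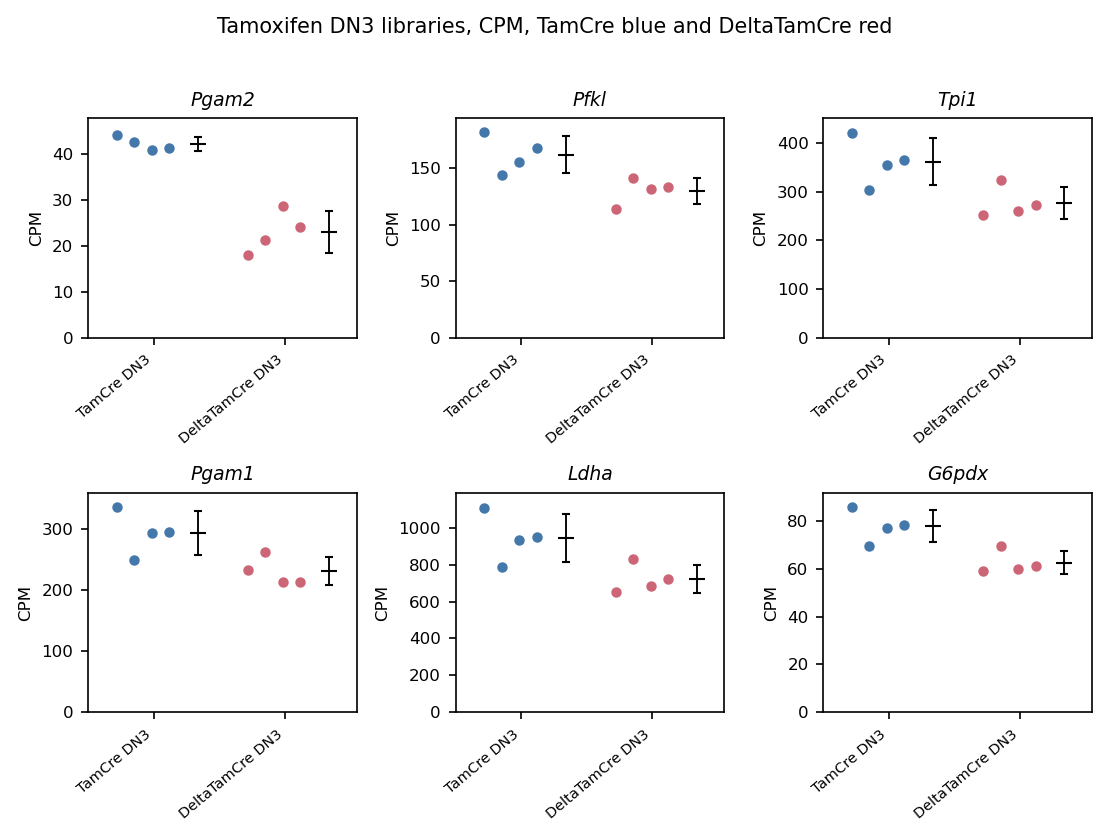
CPM (y axis, from 0) of the 6 members called by DESeq2 in tamoxifen DN3, in the 4 TamCre (blue) and 4 DeltaTamCre (red) libraries, with mean and SD in black. Pgam2 and Pfkl do not overlap between the groups; in the other panels DeltaTamCre replicate 2 reaches or passes TamCre replicate 2.

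Only 2 of 34 members, Pgam2 and Pfkl, did not overlap and were lower in tamoxifen DN3, and 5.81% of all genes did so, which is close to the members' share. The Pgam2 call was lost without any 1 of the 4 TamCre libraries and without DeltaTamCre replicate 2 or 4 (adjusted p from 0.0322 to 0.16 by edgeR). Cd8a, a gene of the next stage, was highest in TamCre replicate 2 at 26.6 CPM and in DeltaTamCre replicate 1 at 45.0 CPM, and without these 2 libraries no member was called by edgeR. Depth also differed, at 65053364 to 91659598 counts in controls and 48127197 to 66487249 after deletion, and the 11 killer and innate genes summed to 306 to 326 CPM in controls and 240 to 268 CPM after deletion, without overlap and with Klrd1 at 0 in both groups. The part of either was not tested.

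The 3 DN3 comparisons shared no library. In all 3, 20 of the 34 members (58.8%) had an edgeR log2 fold change below 0, and 2546 of 11810 genes tested in all 3 (21.6%) did. They were Slc2a3, Hk2, Pfkl, Aldoa, Tpi1, Gapdh, Pgk1, Pgam1, Pgam2, Pkm, Ldha, Ldhb, Slc16a1, Pdk3, G6pdx, Pgls, Pgd, Rpia, Tkt and Taldo1. Under the antibody Taldo1 was at -0.0044 by edgeR and at 0.0082 by DESeq2, so its place among them depends on the tool. Only Bpgm and Hk1 were above 0 in all 3. Of the glycolytic enzymes from Aldoa to Pkm, the common form of each step was lower in all 3 except Eno1, enolase, at 0.23 after pI-pC, -0.40 after tamoxifen and 0.04 under the antibody (log2 fold change). Most single values did not pass the test, and the counts describe the list without testing it.

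**Figure D3:**
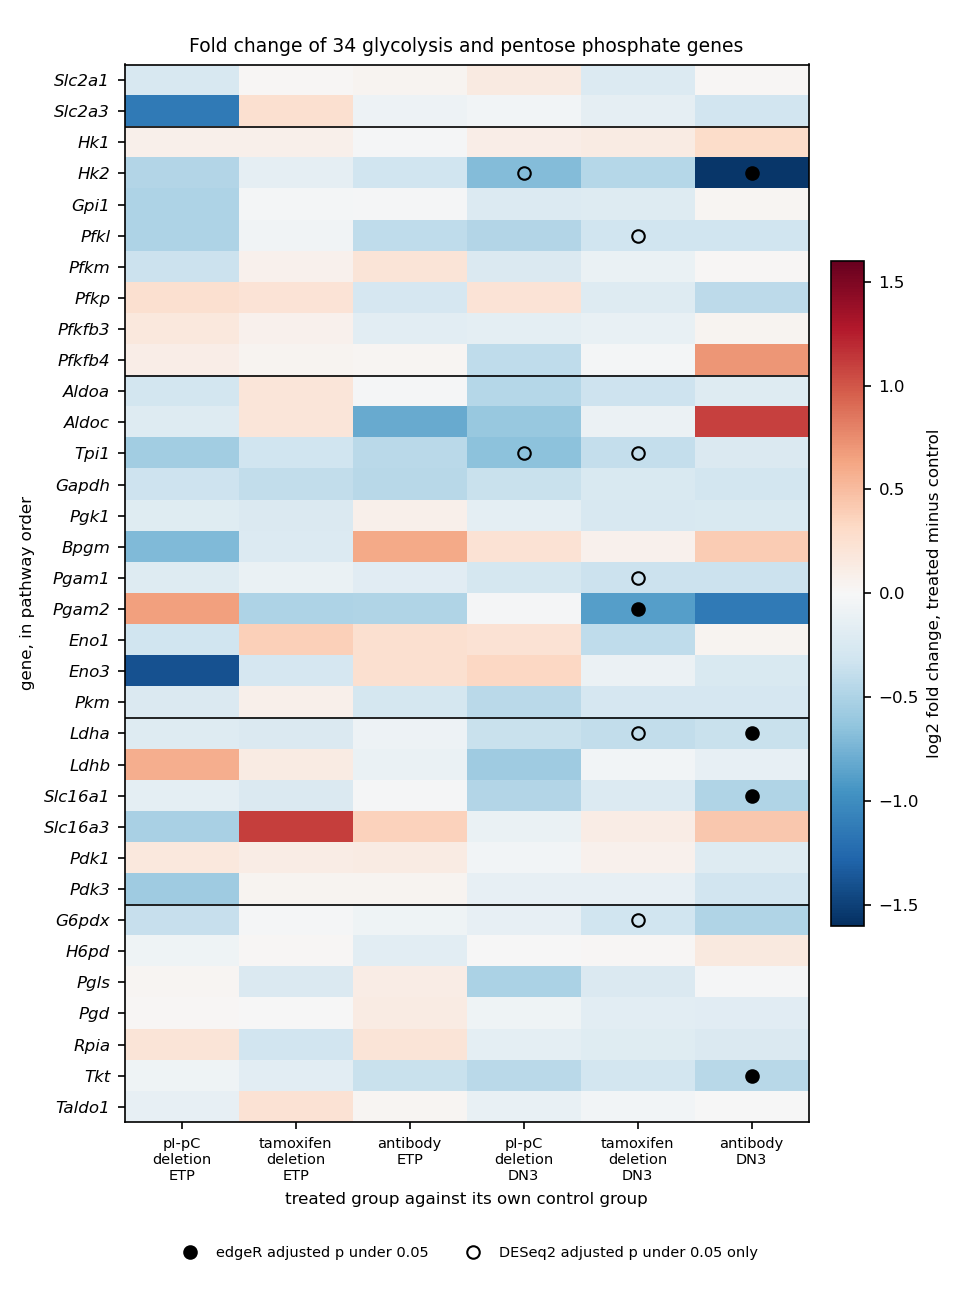
Log2 fold change, treated minus control, of the 34 members (rows, in pathway order, with lines between transport, upper glycolysis, lower glycolysis, pyruvate use and pentose phosphate genes) in the 6 comparisons (columns), with filled circles for edgeR calls and open circles for calls by DESeq2 alone. The DN3 columns on the right hold all 5 edgeR calls, and their blue cells outnumber the red.

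In ETP no member was called in any of the 3 comparisons, by edgeR or by DESeq2. After pI-pC, 0.0416% of all genes were called by edgeR, and 24 of 34 members were below 0 (70.6%, against 52.5% of all genes) with a median of -0.21 against -0.03. Gpi1 stood at 509, 505 and 683 CPM in MxCre ETP and at 375, 440 and 388 CPM in DeltaMxCre ETP, without overlap (log2 fold change -0.49, adjusted p = 0.82 by edgeR). Tpi1 stood at 85, 90.4 and 119 CPM against 64.7, 63.3 and 71 CPM, also without overlap (log2 fold change -0.56, adjusted p = 0.837 by edgeR). Without overlap and lower stood 4 of 34, Hk2, Gpi1, Pfkl and Tpi1, where 6.46% of all genes did so. The members ranged from -1.39 for Eno3, the muscle enolase, to 0.65 for Pgam2 on the log2 scale, both low in these libraries and both with adjusted p = 0.996 by edgeR.

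The pI-pC ETP median rested on 1 library. MxCre ETP replicate 3 had the highest summed member level of that set, 5779 CPM, the highest proliferation sum, 8816 CPM, and a Malat1 share of 0.0777% of counts against 0.422% and 0.484% in the other controls. Without it the members' median was -0.04. The stage markers also moved: the 10 DN3 genes summed to 8786 to 9792 CPM in DeltaMxCre ETP and 4297 to 5191 CPM in MxCre ETP, and their part in the members' values was not tested.

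After tamoxifen in ETP, edgeR called 0% of all genes, 17 of 34 members were below 0 (50%, against 45.6%), and the median was 0.01 against 0.03 for all genes. Gapdh stood at 298, 324, 364 and 316 CPM in TamCre ETP and at 206, 286, 234 and 261 CPM in DeltaTamCre ETP, without overlap (log2 fold change -0.40, adjusted p = 0.907 by edgeR). It was the only member that did not overlap and was lower, where 2.19% of all genes did so. Ldha stood at 279, 300, 282 and 268 CPM against 263, 271, 218 and 211 CPM, overlapping (log2 fold change -0.23, adjusted p = 0.907 by edgeR). The DeltaTamCre ETP libraries were unlike one another. Their double-positive genes summed to 752 to 4549 CPM, against 877 to 2320 CPM in TamCre ETP. Their killer and innate genes summed to 87.7 to 1187 CPM, against 129 to 524 CPM. Rn45s took 16.8 to 31.5% of counts, against 20.5 to 27.3%. The part of this spread in the members' values was not tested.

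Under the antibody in ETP, edgeR called 0% of all genes, 20 of 34 members were below 0 (58.8%, against 48.8%), and the median was -0.02 against 0.01. Gapdh stood at 260, 233 and 295 CPM under IgG and at 200, 225 and 153 CPM under the antibody (log2 fold change -0.45, adjusted p = 0.848 by edgeR). Gapdh alone did not overlap and was lower, where 5.96% of all genes did so. Pfkl stood at 114, 105 and 137 CPM against 79.1, 107 and 83.1 CPM (log2 fold change -0.41, adjusted p = 0.907 by edgeR). Hk2 ranged from 12 to 41.9 CPM in the treated ETP libraries, against 25.6 to 43 CPM. Stage markers moved here too, without overlap. The DN3 genes, Dtx1 and Il2ra among them, summed to 1870 to 3623 CPM under the antibody and 4874 to 7131 CPM under IgG. The dendritic-cell genes summed to 281 to 492 CPM and 98.1 to 219 CPM. The part of either in the members' values was not tested.

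Whether an effect differed between stages or between treatments was tested within the pI-pC and antibody table, and no member passed in any of 4 tests. In ETP against DN3, edgeR called 0.00746% of all genes for the pI-pC deletion and 0% for the antibody, and the lowest adjusted p of a member was 0.881 and 0.901. For deletion against antibody, it called 0.082% of all genes in ETP and 1.23% in DN3, and the lowest adjusted p of a member was 0.64 and 0.174. The effect of the antibody on Hk2 was 1.22 higher in ETP than in DN3 on the log2 scale (SE 0.48, adjusted p = 0.901, edgeR). The effect of deletion on Hk2 in DN3 was 0.84 above that of the antibody (SE 0.32, adjusted p = 0.245, edgeR). The size of the Hk2 change under the antibody is thus not shown to differ from that in ETP or from that after pI-pC deletion.

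The stages themselves were compared in control mice. In the IgG libraries 7 of 34 members (20.6%) were called by edgeR, against 14.7% of all genes. Taldo1, Pgls, Ldha, Aldoa and Pgam1 were higher in ETP, where 7.6% of all genes were, and Ldhb and Slc16a1 were lower, where 7.12% were. The members' median log2 difference, ETP minus DN3, was 0.29 against 0.01 for all genes. In the MxCre libraries edgeR called no member and 2.99% of all genes. DESeq2 called 4 there, Gpi1, Aldoa and Taldo1 higher and Ldhb lower, where it called 1016 of 12399 genes, and the median was 0.25.

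Ldhb stood at 47.3, 46.8 and 32.6 CPM in IgG ETP and at 131, 103 and 116 CPM in IgG DN3. The stages were well apart (log2 difference -1.47, SE 0.18, adjusted p = 4.78e-05, edgeR). In MxCre it stood at 31, 21.8 and 11.8 CPM in ETP and at 84.3, 115 and 40.9 CPM in DN3, where DN3 replicate 3 lay near the ETP libraries (log2 difference -1.87, SE 0.44, adjusted p = 0.055 by edgeR and 0.00133 by DESeq2). Ldha went the other way under IgG, at 311, 282 and 381 CPM in ETP and 234, 216 and 217 CPM in DN3 (log2 difference 0.55, adjusted p = 0.00955, edgeR). Ldhb was thus 16.2 ± 4.51% of both lactate dehydrogenase subunits per kilobase in IgG ETP and 43.2 ± 1.97% in IgG DN3 (SD, n = 3 each). In MxCre the shares were 9.35 ± 6.05% and 26.1 ± 11.8%, and those ranges overlapped.

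Slc16a1 stood at 148, 119 and 142 CPM in IgG ETP and at 236, 206 and 159 CPM in IgG DN3, without overlap (log2 difference -0.56, adjusted p = 0.0203, edgeR). A pair of pentose phosphate enzymes was higher in ETP. Taldo1 stood at 192, 167 and 211 CPM in ETP and 137, 119 and 121 CPM in DN3 (log2 difference 0.60, adjusted p = 0.00561, edgeR). Pgls, the lactonase after G6pdx, stood at 72.4, 69.2 and 83.9 CPM against 45.1, 43.3 and 47.2 CPM (log2 difference 0.73, adjusted p = 0.00667, edgeR), and both stood without overlap. Aldoa, the main aldolase, stood at 169, 168 and 255 CPM against 142, 112 and 118 CPM (log2 difference 0.67, adjusted p = 0.0108, edgeR), and Pgam1 at 157, 159 and 206 CPM against 117, 114 and 146 CPM (log2 difference 0.47, adjusted p = 0.0414, edgeR).

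**Figure D4:**
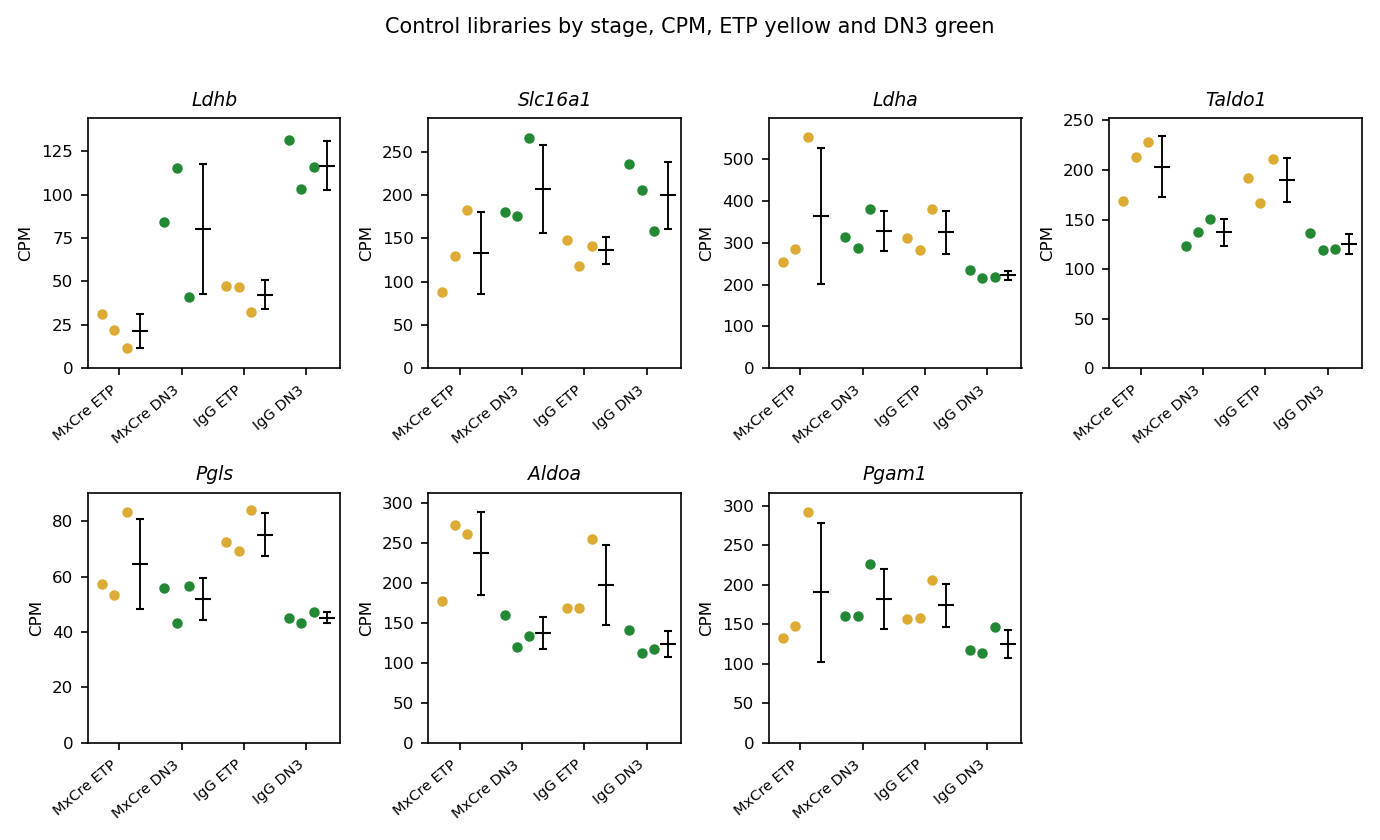
CPM (y axis, from 0) of the 7 members called between stages under IgG, in the ETP (yellow) and DN3 (green) control libraries of the pI-pC and antibody arms, with mean and SD in black. Ldhb is higher in every IgG DN3 library than in every IgG ETP library, and MxCre DN3 replicate 3, at 40.9 CPM, lies below the other DN3 libraries.

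Leaving out each IgG library in turn gave 3 to 10 called members, 3 without IgG DN3 replicate 2, and the spread over all 8 groups gave 4. In MxCre it gave 0 to 3, 3 without ETP replicate 1 and 1 without DN3 replicate 3, and the median fell to 0.09 without ETP replicate 3. Of 20 proliferation genes, 14 were higher in IgG ETP than in IgG DN3 and none lower, with summed levels of 3383 to 6612 CPM and 2592 to 2975 CPM. Rn45s took 8.92 to 13.8% of counts in IgG ETP and 2.75 to 3.74% in IgG DN3. Malat1 took 0.432 to 0.788% and 1.06 to 1.39%, also without overlap. The part of any of these in the members' difference was not tested. The treated groups of each arm used the same control libraries as these stage comparisons.

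The share of Hk2 among hexokinases was lower in the treated DN3 group of each arm. After pI-pC it was 9.67 ± 1.74% against 15.8 ± 1.5% in controls, and after tamoxifen 7.92 ± 0.68% against 11.4 ± 2.69%. The pI-pC ranges and the tamoxifen ranges did not overlap, since the lowest TamCre share was 9.04% and the highest DeltaTamCre share 8.72%. In ETP the share was 16.6 ± 7.4% under the antibody and 20.2 ± 5.57% under IgG, which overlapped. The share of Pfkl among phosphofructokinases stayed between 49.2% and 64.5% in the antibody DN3 libraries, and its group means, 55 ± 5.18% and 58.2 ± 5.71%, lay within 1 SD.

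Neighbouring genes were also tested. Of 19 tested genes among other glycolysis and pentose phosphate genes, 1 fell under the antibody in DN3, close to the 5.61% of all genes that edgeR called there. It was Prps2, which makes phosphoribosyl pyrophosphate from ribose 5-phosphate (log2 fold change -0.46, adjusted p = 0.00615, edgeR), at 203 to 221 CPM against 269 to 311 CPM. None of 20 genes of glucose uptake, lactate export and pyruvate entry was called there. In the other 5 treated comparisons edgeR called none of either list. DESeq2 called Prps1 lower in tamoxifen DN3 (log2 fold change -0.31, adjusted p = 0.0297; 0.141 by edgeR). It also called G6pc3 lower in pI-pC ETP, at 3.45 to 4.59 CPM against 19.1 to 24.1 CPM (adjusted p = 0.0083; 0.336 by edgeR). Ldhal6b was called higher there by DESeq2, at 1.74 to 6.94 CPM after deletion and 0 in every MxCre ETP library.

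Among regulators of these routes, Myc and Mycn fell and Prkaa1, a catalytic subunit of the energy sensor AMPK, rose under the antibody in DN3, where edgeR called 5.61% of all genes. Myc stood at 170, 108 and 112 CPM under IgG and at 67.8, 68 and 62.8 CPM under the antibody (log2 fold change -0.99, SE 0.16, adjusted p = 0.000253, edgeR). The groups did not overlap. The other values were -0.99 for Mycn (adjusted p = 0.0147) and 0.70 for Prkaa1 (adjusted p = 0.0332), both by edgeR. Myc in tamoxifen DN3 stood at 376 to 545 CPM against 603 to 665 CPM, without overlap (log2 fold change -0.43, adjusted p = 0.128 by edgeR and 0.0096 by DESeq2). After pI-pC in DN3 it stood at 74.9 to 104 CPM against 100 to 227 CPM with overlap (log2 fold change -0.84, adjusted p = 0.211 by edgeR and 0.0209 by DESeq2). In ETP the log2 fold changes of Myc were -0.10 after pI-pC, -0.32 after tamoxifen and -0.999 under the antibody, with adjusted p of 0.996, 0.907 and 0.675 by edgeR.

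DESeq2 alone also called Ndrg1, a hypoxia-induced gene, lower after pI-pC in DN3 (log2 fold change -0.75, adjusted p = 0.0202). Hif1a, the oxygen-regulated activator of glycolytic genes, was called in none of the 6 treated comparisons, with log2 fold changes from -0.14 after pI-pC in ETP to 0.28 under the antibody in DN3 (adjusted p = 0.996 and 0.17 by edgeR). Hypoxia genes outside glycolysis summed to 668 to 729 CPM after pI-pC in DN3, against 762 to 858 CPM in controls. After tamoxifen in DN3 they summed to 928 to 980 CPM, against 1034 to 1239 CPM. Under the antibody in DN3 they summed to 767 to 895 CPM, against 698 to 756 CPM, the opposite direction. No arm had overlapping sums. Of 13 tested genes of this list, Bnip3l, a mitophagy receptor, rose under the antibody in DN3 (log2 fold change 0.46, adjusted p = 0.0193, edgeR). Mif fell there (log2 fold change -0.58, adjusted p = 0.0471, edgeR), where 5.61% of all genes were called by edgeR. DESeq2 alone called Vegfa higher there (log2 fold change 0.64, adjusted p = 0.0186), as well as the Hif1a partner Arnt (log2 fold change 0.44, adjusted p = 0.0258), and it called Mif and Fam162a lower in tamoxifen DN3 (log2 fold changes -0.41 and -0.28, adjusted p = 0.0393 and 0.0446).

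Glycolytic genes and cell division are known to move together, so the summed levels were set side by side. The 34 members summed to 3329 to 3670 CPM in IgG DN3 and 2994 to 3287 CPM in AntiNRR DN3, without overlap, while the 20 proliferation genes summed to 2592 to 2975 CPM and 1693 to 3444 CPM, with overlap. One proliferation gene of 20, Mcm3, fell there (log2 fold change -0.58, adjusted p = 0.00639, edgeR), close to the 5.61% of all genes called. In pI-pC DN3 the members summed to 3755 to 4618 CPM in controls and 3220 to 3739 CPM after deletion, without overlap, and the proliferation genes to 4079 to 8333 CPM and 4255 to 5438 CPM. In tamoxifen DN3 the members summed to 7462 to 10090 CPM and 6748 to 8348 CPM, and the proliferation genes to 6813 to 8478 CPM and 6378 to 8973 CPM, both with overlap. No proliferation gene was called by edgeR or DESeq2 in either deletion.

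**Figure D5:**
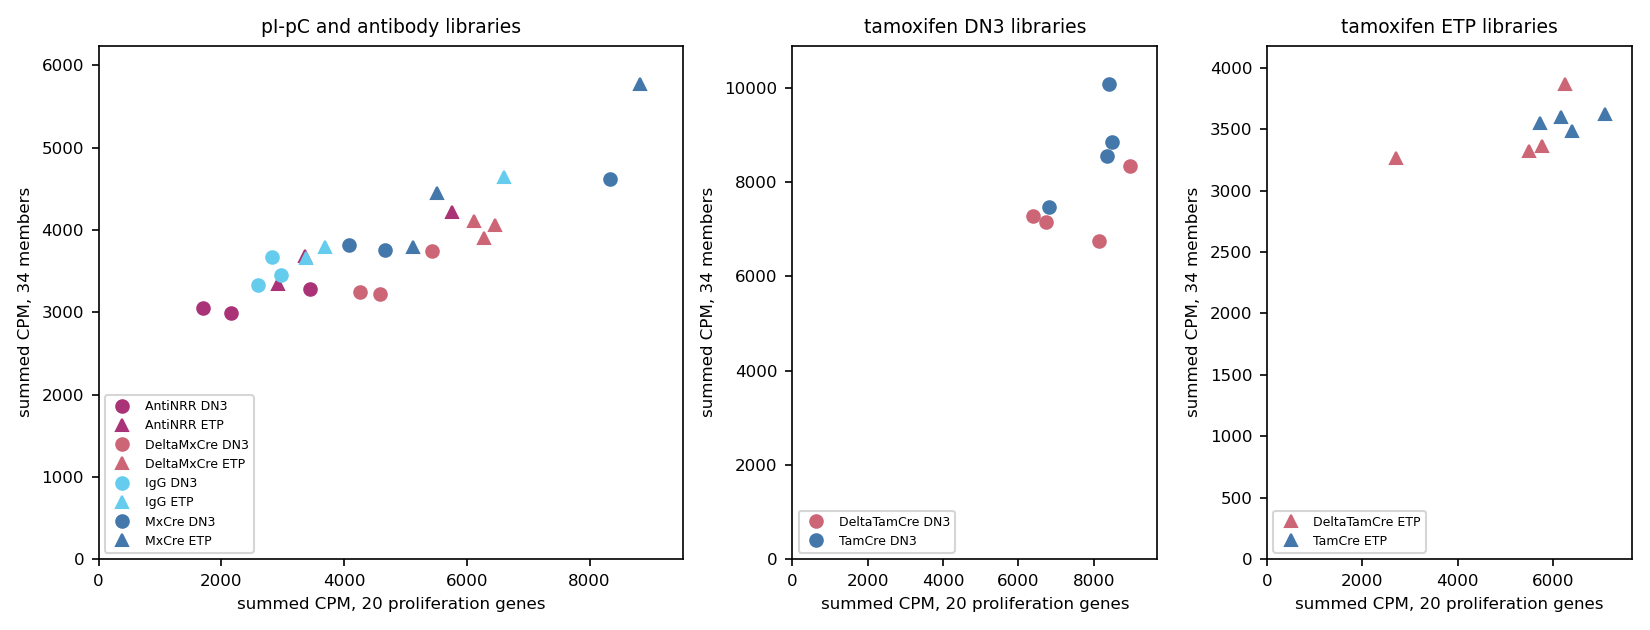
Summed CPM of the 34 members (y axis) against summed CPM of 20 proliferation genes (x axis), 1 point per library, in the 3 library sets (panels), with circles for DN3, triangles for ETP and colours for groups. In the first panel MxCre ETP replicate 3 lies at the top right, with 5779 CPM of members and 8816 CPM of proliferation genes, and the AntiNRR DN3 libraries lie at the lower left.

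Some members share sequence with other loci. Gapdh, Tpi1, Pgk1, Ldha, Pgam1, Aldoa, Eno1 and Pkm have near-identical processed copies in the mouse genome, and how the counting treated reads that match several places is not given in the sources used here, so their absolute levels are uncertain. G6pdx overlaps Ikbkg on the other strand over 19712 bases of gene span, Hk2 overlaps an antisense transcript over 3007 bases and Pgls overlaps Fam129c on its own strand over 3445 bases (GENCODE annotation). These are overlaps of gene span, and the overlap of exons was not measured. It is not stated whether strand was used, and strand could not part Pgls from Fam129c. Reads of shared bases may have been counted for either gene of a pair.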

How the data were processed

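The deposited values were estimated counts per gene symbol in 3 tables, which the authors had not scaled between libraries; between 0.712% and 1.19% of values lay further than 0.01 from a whole number, and all were rounded. The submitters' processing notes name the genome build mm10, the aligners Bowtie2 2.1.0.0 and TopHat2 2.0.9, the quality tool FastQC 0.10.0, and Cuffdiff 2.1.1 with Cufflinks, without saying what each did; annotation, strand and multiply mapping reads are not given in the sources used here. No 2 libraries were identical, and 0 columns were left unused.

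Each fit, in R 4.3.3, held the compared groups alone. Genes kept by filterByExpr (minimum count 10, minimum total 15) were scaled by TMM and tested with edgeR 4.0.16 (quasi-likelihood, limma 3.58.1), with Benjamini-Hochberg adjustment over all genes tested; 4 interactions were fitted on 4 groups each. DESeq2 1.42.0, other filters and scaling, a replicate block, a shared spread and leaving out libraries were alternatives. Fits were tested on simulated data. CPM are TMM-scaled; CPM per kb divide by merged exon length (GENCODE).

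Every library's value is given for members that either tool called in a treated comparison or that had 1 of the 2 lowest p there, and for stage calls. Members and lists were chosen with earlier results of these data known. A gene of the regulator list is not reported here. Replicate numbers in the labels are not said to pair libraries, and correlations of same-numbered deviations (-0.62 to 0.25) did not pair them. For the antibody arm, nothing states that libraries came from separate mice, so those p-values measure the spread between libraries. Promoters are RefSeq's on GRCm38.p6.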

Additional observations from a re-analysis of the deposited data

Results flagged for a closer look

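Of 64 sets of 4 library values, each for 1 member in 1 group, 1 held a value far from the other 3 by Dixon's test. G6pdx stood at 30.7 CPM in DeltaTamCre ETP replicate 3, and at 40.7 to 41.3 CPM in the other 3 libraries of that group. The gap was 0.938 of the group's range, above the critical value of 0.829. Chance gives a gap above the critical value in about 1 of 20 such sets. The TamCre ETP libraries stood at 35.4 to 42.2 CPM.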

How the results depend on the processing

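No member given with every library's value in a comparison turned sign there under any alternative run. Taldo1 in antibody DN3, near 0, did turn sign. Its log2 fold change was -0.0044 by edgeR and 0.0082 by DESeq2. The members' medians near 0 also turned sign. The antibody ETP median (-0.02) was 0.06 without AntiNRR replicate 1. The tamoxifen ETP median (0.01) was below 0 in 7 of 8 fits with a library left out, with the block and with no filter. In pI-pC DN3 the 0 called members became 2 with DESeq2, 1 (Tpi1) with no filter beyond 1 count, and 0 to 1 when each library was left out. In tamoxifen DN3 the 1 called member became 6 with DESeq2, 0 without the Cd8a-highest library of each group (chosen after seeing the data), and 0 to 1 with each library left out. In antibody DN3 the 4 became 1 with a spread shared by all groups and 1 to 3 with each library left out; DESeq2 size factors left 3, without Ldha. Between stages, the 0 in MxCre became 4 with DESeq2, 1 with no filter, 4 with a shared spread and 0 to 3 with each library left out; the 7 under IgG became 4 with a shared spread and 3 to 10. Deletion against antibody in DN3 gave 0 to 1 (Ldhb, without MxCre DN3 replicate 3). Medians of the members ranged, with each library left out, from -0.36 to -0.038 (pI-pC ETP; -0.038 without MxCre ETP replicate 3), -0.29 to -0.10 (pI-pC DN3), -0.27 to -0.13 (tamoxifen DN3), -0.26 to -0.12 (antibody DN3), -0.04 to 0.00 (tamoxifen ETP), -0.11 to 0.06 (antibody ETP), 0.087 to 0.33 (MxCre stages; 0.087 without MxCre ETP replicate 3) and 0.18 to 0.34 (IgG stages).

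With the replicate number as a block, which the labels do not describe as a pairing, the call of Pgam2 in tamoxifen DN3 was lost (0 members) and 1 member was called between the MxCre stages. No comparison had same-numbered libraries that all correlated best with their own number. The block changed no other count of called members beyond 1.5 times. Low members such as Slc16a3, under 10 CPM in every library, are limited by depth.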

Other observations

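Bsg and Mycn are named here after their values were seen. Bsg, basigin, which escorts monocarboxylate carriers such as Slc16a1 to the membrane, was higher in IgG ETP than in IgG DN3 (log2 difference 0.50, adjusted p = 0.0201, edgeR), the opposite direction to Slc16a1 itself. Mycn was higher in ETP than in DN3 in the MxCre libraries (log2 difference 1.43, adjusted p = 0.0169, edgeR) and had a log2 difference of 0.75 in the IgG libraries (adjusted p = 0.0657, edgeR). Myc had log2 differences of -0.62 and 0.18 in the same comparisons (adjusted p = 0.336 and 0.578, edgeR).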
